A study of Mus musculus with 38 samples.

Results

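The comparison described here is between livers of refed mice that lack the insulin receptor and FoxO1 in hepatocytes (the double knockout, LIRFKO) and livers of refed mice of the same cross that carry the floxed alleles of both genes without the deletion (IR/FoxO1 floxed). The members are the libraries whose titles give double knockout and refed, 4 mice (IRF.KO_Refed_468, IRF.KO_Refed_469, IRF.KO_Refed_478 and IRF.KO_Refed_524), and those whose titles give IR/FoxO1 floxed and refed, 3 mice (IRF.fl_Refed_467, IRF.fl_Refed_472 and IRF.fl_Refed_473), 7 of the 38 libraries of the series. Where a level is given for every mouse, it is in these orders. All were male, 11 to 12 weeks old and of a mixed FVB/N-C57Bl/6 background; the deletion was driven by albumin-Cre, which acts in hepatocytes, so the other cells of the liver keep both genes. Food was given for 6 h before the livers were taken. The fast before it is called overnight in one label and 24 h in another. Whether the floxed mice were littermates of the knockouts is not stated in the labels. The other groups compared here are fasted mice of the same 2 genotypes (3 LIRFKO and 3 floxed), and refed mice of a second cross in which only the receptor was deleted (4 LIRKO) with their own IR floxed controls (4). The fit of 37 libraries also drew its estimate of spread from groups that are not compared here. These were fasted IR floxed (4) and fasted LIRKO (3) mice, and mice taken after glucose (3 IR floxed, 3 LIRKO and 3 LIRFKO).

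Insulin acts on hepatocytes through its receptor, and the kinase AKT downstream of it phosphorylates FoxO1 and keeps this transcription factor out of the nucleus after a meal. In the fasted liver, nuclear FoxO1 drives genes of glucose production such as G6pc and Pck1 and the secreted binding protein Igfbp1, and it holds back genes of glucose use and lipid synthesis. Loss of the receptor leaves FoxO1 active after feeding; loss of both removes the signal and its main nuclear target, so the double knockout asks which effects of lost insulin action remain without FoxO1.

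Each library is one dye of an Agilent two-colour array, and its values are normalized log2 intensities, on which a difference of 1 is a doubling. Of the 7, IRF.KO_Refed_468, IRF.KO_Refed_478, IRF.fl_Refed_472 and IRF.fl_Refed_473 were in Cy5 and the rest in Cy3. IRF.fl_Refed_467 was thus the only control in Cy3, so among the controls that mouse and its dye cannot be told apart. One probe per gene gave 22479 genes, with a median level over all libraries of 6.17. Correlations between libraries, taken over all 45220 features of the array, were 0.9906 to 0.9950 within LIRFKO refed and 0.9915 to 0.9947 within the floxed refed. Between the groups they were 0.9871 to 0.9921, a range that began and ended lower than within either group. No slide held both groups, going by the numbers of the raw files, so slide and genotype cannot be told apart by a comparison within a slide; fits with slide as a block are given with the limits.

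One library stood apart from its group before any comparison was made. The liver of IRF.KO_Refed_478 held RNA of pancreatic acinar cells: the mean log2 level of 25 measured acinar genes was 10.27 there and lay between 5.80 and 6.00 in the 6 other refed livers. All 25 were highest in IRF.KO_Refed_478, 24 of them by more than 1 log2 unit, with a median excess over the highest other liver of 4.46. Try5, a trypsinogen, was at 13.11 in IRF.KO_Refed_478 and between 5.27 and 5.38 elsewhere. Cpa1, carboxypeptidase A1, was at 11.95 against 5.45 to 5.57, and the proelastase Cela3b at 11.13 against 5.46 to 5.92. The amylase Amy2a5, which the other livers also gave at 8.92 to 10.05, was at 14.50. The islet markers did not follow: their mean was 5.87 in IRF.KO_Refed_478 and 5.78 to 5.89 in the others, and hepatocyte markers were at 14.96 there, inside the range of the other 6 (14.66 to 14.99). None of the 25 acinar genes passed the test between the groups, although their median fitted difference was 1.06 with IRF.KO_Refed_478 and -0.11 without it. Results are therefore given with and without this mouse wherever a call depended on it.

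**Figure D1:**
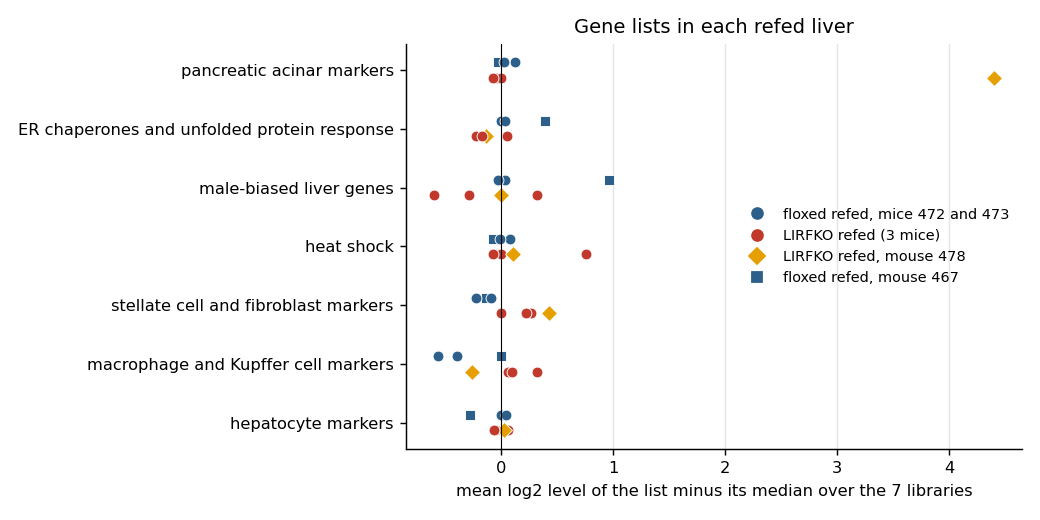
Mean log2 level of 7 gene lists in each of the 7 refed livers, drawn as the difference from the list's median over those libraries; circles and squares in blue are floxed mice, red circles and the orange diamond are LIRFKO mice. The diamond of IRF.KO_Refed_478 lies far to the right for the acinar genes and within the other libraries for hepatocyte markers, and the blue square of IRF.fl_Refed_467 is the highest library for male-biased genes and for ER chaperones.

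With all 7 mice, 83 of 22479 genes (0.369%) differed between LIRFKO and floxed livers at an adjusted p under 0.05 (limma, Benjamini-Hochberg over all genes): 32 were higher (0.142%) and 51 lower (0.227%) in the double knockout. At an unadjusted p under 0.05 there were 2332. Of the 83, 35 differed by at least 1 log2 unit, 11 upward and 24 downward, and in 79 the 4 knockout and 3 floxed libraries did not overlap. Complete separation alone was common: 1282 genes (5.7%) had every knockout library above every floxed library and 1231 (5.48%) every one below. The median fitted difference of all genes was -0.001. Of the falls, 25 had a mean level below the median of all genes, against 2 of the rises, so about as many genes of middle or high level rose as fell (30 and 26). Without IRF.KO_Refed_478, 76 genes were called (36 higher, 40 lower), 55 of them among the 83. The count was 27 without IRF.fl_Refed_473, 33 without IRF.fl_Refed_467, 42 without IRF.KO_Refed_468 and 54 without IRF.fl_Refed_472, and 5 when the 7 libraries were fitted alone, so the size of the list rests on single mice and on the spread shared with the other groups.

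**Figure D2:**
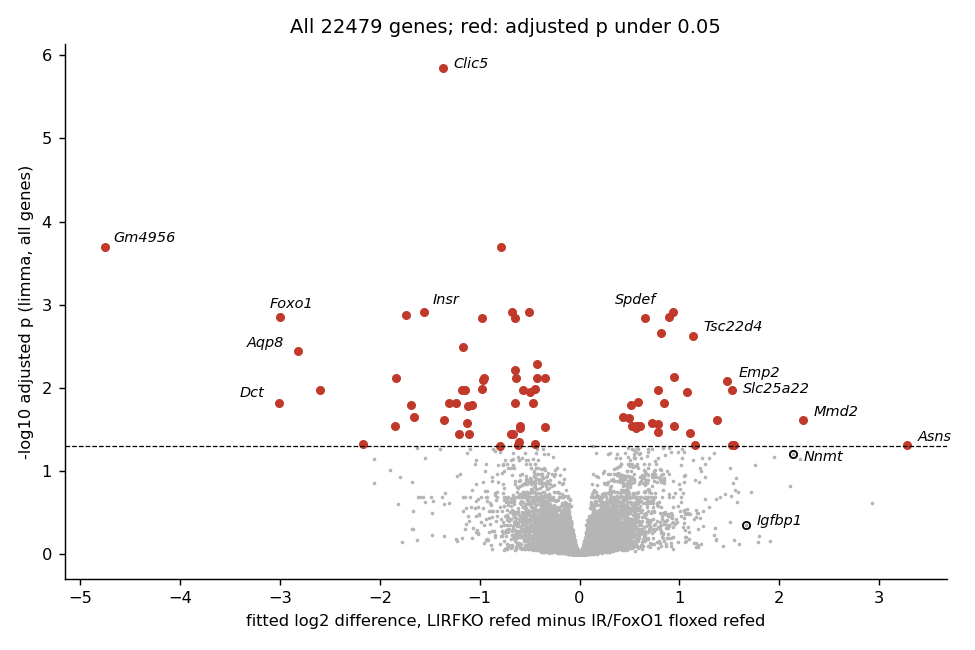
Fitted log2 difference of LIRFKO refed minus IR/FoxO1 floxed refed (horizontal) against -log10 of the adjusted p (vertical) for all 22479 genes; red points are the 83 genes with an adjusted p under 0.05, the dashed line marks that threshold, and open circles mark uncalled genes that are named. Clic5 has the smallest adjusted p, Gm4956 the largest fall and Asns the largest rise, while Igfbp1 lies far below the line.

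Both deleted genes fell. Foxo1 was at 6.97, 6.47, 6.92 and 6.54 in the LIRFKO livers and at 9.25, 9.27 and 9.68 in the floxed livers. The groups were far apart, with a fitted difference of -3.00 ± 0.46 (SE; 4 and 3 mice) and an adjusted p of 0.0014. Insr, the receptor, was at 5.96, 6.05, 6.36 and 6.21 against 7.73, 7.48 and 7.35, again with no overlap (-1.56 ± 0.23, adjusted p 0.0012). Both calls held on leaving out any 1 mouse, with adjusted p up to 0.026 for Foxo1 and 0.017 for Insr. Where the probes lie relative to the deleted exons is not known here. The related factor Foxo3 read close to background in both groups, at 5.42 to 5.54 and 5.54 to 5.59 (-0.09 ± 0.09, adjusted p 0.82). Among 30 measured genes of insulin signalling Insr and Foxo1 were the 2 that fell, none rose and 28 did not pass, with a median difference of -0.002. Of the 30, 6 lay lower in every knockout liver, Insr and Foxo1 included, and 1 lay higher (5.48% and 5.7% of all genes).

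The fitted differences carry a dye term and take into account that 2 libraries share each array, so they are not the plain differences of the group means. For Foxo1 the means of 6.73 and 9.40 differ by -2.67. Levels are quoted as deposited and differences as fitted.

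The largest rise was in Asns, asparagine synthetase, which makes asparagine and is a classical target of the amino acid response factor ATF4. Its level was 11.45, 11.31, 11.79 and 11.97 in the LIRFKO livers and 9.85, 7.97 and 9.15 in the controls. Every knockout liver exceeded every control, and the controls were spread over almost 2 log2 units. Asns also varied in IR floxed livers, from 9.11 to 11.60 refed and from 9.19 to 11.92 fasted. In fasted IR/FoxO1 floxed livers, a group that includes IRF.fl_Fast_523, described below, Asns ranged from 8.28 to 12.34. It was more even in fasted LIRFKO livers (11.46 to 11.96) but not in LIRFKO livers after glucose (10.13 to 12.12). The mean of the refed IR/FoxO1 floxed controls, 8.99, was the lowest of the 11 groups. The fitted difference was 3.28 ± 0.75 with an adjusted p of 0.048, at the edge of the threshold, and it was 2.98 with an adjusted p of 0.12 without IRF.KO_Refed_478 and 0.20 without IRF.fl_Refed_472. Asns was the 1 of 23 measured ATF4 response genes to pass, and the median of that list was 0.13 (0.27 without IRF.KO_Refed_468). Phgdh, the first enzyme of serine synthesis, was at 5.92 to 6.01 against 5.46 to 5.66 (0.35 ± 0.13, adjusted p 0.27), and the stress protein gene Nupr1 at 6.78 to 8.04 against 6.43 to 6.76, highest in IRF.KO_Refed_478 (0.70 ± 0.25, adjusted p 0.24). Of the 23, 4 had knockout libraries all above the controls and 1 had them all below, against 5.7% and 5.48% of all genes.

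The promoter of Asns is shown because this gene had the largest rise. The sequence is the 250 bases before its RefSeq start (GRCm38.p6, chr6:7693210-7693459, minus strand), 5′ to 3′, with capitals for the match to TGATGNAA, the core of the amino acid response element, which begins at base -23 counted from the start:
Asns: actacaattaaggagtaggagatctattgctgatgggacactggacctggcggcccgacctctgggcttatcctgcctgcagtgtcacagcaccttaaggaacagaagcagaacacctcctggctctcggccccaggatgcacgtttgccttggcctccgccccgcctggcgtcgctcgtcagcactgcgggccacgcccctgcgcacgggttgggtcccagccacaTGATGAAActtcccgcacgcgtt
TGATGNAA, on either strand, is in 3.45% of the 32851 RefSeq promoter windows of that length. Of the called genes matched to a window it is in 1 of 22 that rose, Asns itself, and 2 of 42 that fell, Gna14 and Tas2r138. The percentage counts windows, while a called gene counts if any of its windows matched, so the shares are not in the same unit. This is a match of letters and does not show that a factor binds there.

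The 12 largest rises and falls described here are those among genes whose groups did not overlap, whose mean level exceeded the median of all genes and which are not predicted models. Slc25a22, a mitochondrial glutamate carrier, was at 12.15, 11.55, 11.72 and 11.37 in the LIRFKO livers and at 9.80, 10.31 and 10.64 in the controls (1.53 ± 0.29, adjusted p 0.011). Fh1, fumarate hydratase of the citric acid cycle, was at 13.65, 14.10, 13.91 and 13.74 against 12.40, 13.18 and 12.94 (1.16 ± 0.26, adjusted p 0.048; 0.11 without IRF.KO_Refed_478). Slc25a4, an ADP/ATP carrier of the inner membrane chosen after its values were seen, rose less, being at 10.38 to 10.63 against 9.65 to 10.17 (0.56 ± 0.12, adjusted p 0.030; 0.074 with slide as a fixed block). In none of the 3 did the groups overlap. Emp2, an epithelial membrane protein, was at 8.55, 8.0, 8.56 and 7.88 against 6.93, 7.20 and 6.80 (1.48 ± 0.27, adjusted p 0.0081). Mmd2, a progestin and adipoQ receptor family member, was tightly grouped in the knockouts at 9.39, 9.19, 9.29 and 9.40 and lower and more spread in the controls at 7.73, 7.26 and 6.80 (2.24 ± 0.47, adjusted p 0.024; 0.075 without IRF.KO_Refed_478).

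The rise called in the most settings was in Tsc22d4, a member of the TSC22 domain family of transcriptional regulators. It was at 7.67, 7.68, 7.44 and 7.65 in the knockouts and 6.58, 6.65 and 6.61 in the controls, a gap several times the spread within either group (1.14 ± 0.19, adjusted p 0.0024). With Foxo1 and the pseudogene Gm4956 it was 1 of 3 genes called in all 20 alternative settings. Its limma adjusted p reached 0.049 in settings other than the 7 libraries alone, just inside the threshold. Its relative Tsc22d1 moved the other way, at 8.40, 8.09, 8.88 and 8.71 against 11.33, 9.17 and 9.78 (-1.66 ± 0.34, adjusted p 0.022), with IRF.fl_Refed_467 the highest. Without that mouse the adjusted p of Tsc22d1 was 0.22. Spdef, an epithelial transcription factor chosen after its values were seen, was at 6.32 to 6.67 against 5.51 to 5.61 (0.93 ± 0.14, adjusted p 0.0012). Outside the fit of the 7 libraries alone, Spdef was called in every setting that tested it (limma adjusted p up to 0.030).

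The remaining rises among the 12 largest were in Tpsb2, Rnu1b6, Lysmd2, Grk3, Csrp2 and Dcbld1, and with slide as a fixed block Tpsb2, Rnu1b6, Lysmd2 and Dcbld1 were not called (adjusted p 0.087, 0.097, 0.078 and 0.090). Tpsb2, a tryptase of mast cells, was at 8.44, 7.83, 7.54 and 7.83 against 6.14, 6.23 and 6.56 (1.55 ± 0.35, adjusted p 0.048); the group means of its other probe differed by 0.057. The U1 small nuclear RNA gene Rnu1b6, one of several near-identical copies that a probe may not separate, was at 11.98, 11.73, 11.57 and 11.11 against 9.93, 10.60 and 9.96 (1.52 ± 0.35, adjusted p 0.048; 0.065 without IRF.KO_Refed_478). In both genes the knockouts lay above all controls, and IRF.KO_Refed_468 was the highest. Lysmd2 had levels of 7.66, 7.43, 7.29 and 7.11 against 5.71, 6.47 and 6.24 (1.38 ± 0.29, adjusted p 0.024). Grk3, a kinase that desensitizes G protein-coupled receptors, was at 7.37, 7.26, 7.83 and 7.37 against 6.65, 6.61 and 6.57, highest in IRF.KO_Refed_478 (1.10 ± 0.24, adjusted p 0.035; 0.12 without it). Csrp2, a LIM domain protein, was at 11.50, 11.70, 11.43 and 11.63 against 10.71, 10.57 and 10.40 (0.95 ± 0.17, adjusted p 0.0073). Dcbld1 was at 8.10, 7.09, 7.11 and 7.37 against 6.25, 6.47 and 6.49 (0.95 ± 0.20, adjusted p 0.029). Ulk1, the kinase that starts autophagy, chosen after its values were seen, was called although its libraries overlapped, at 11.54, 10.75, 11.85 and 11.38 against 9.88, 10.32 and 10.87 (1.08 ± 0.21, adjusted p 0.011; 0.050 without IRF.KO_Refed_478). Of the 12 largest rises, Tsc22d4 was called on leaving out any 1 mouse; the others reached adjusted p of 0.086 to 0.27 without IRF.fl_Refed_467, IRF.KO_Refed_468, IRF.fl_Refed_472 or IRF.fl_Refed_473.

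**Figure D3:**
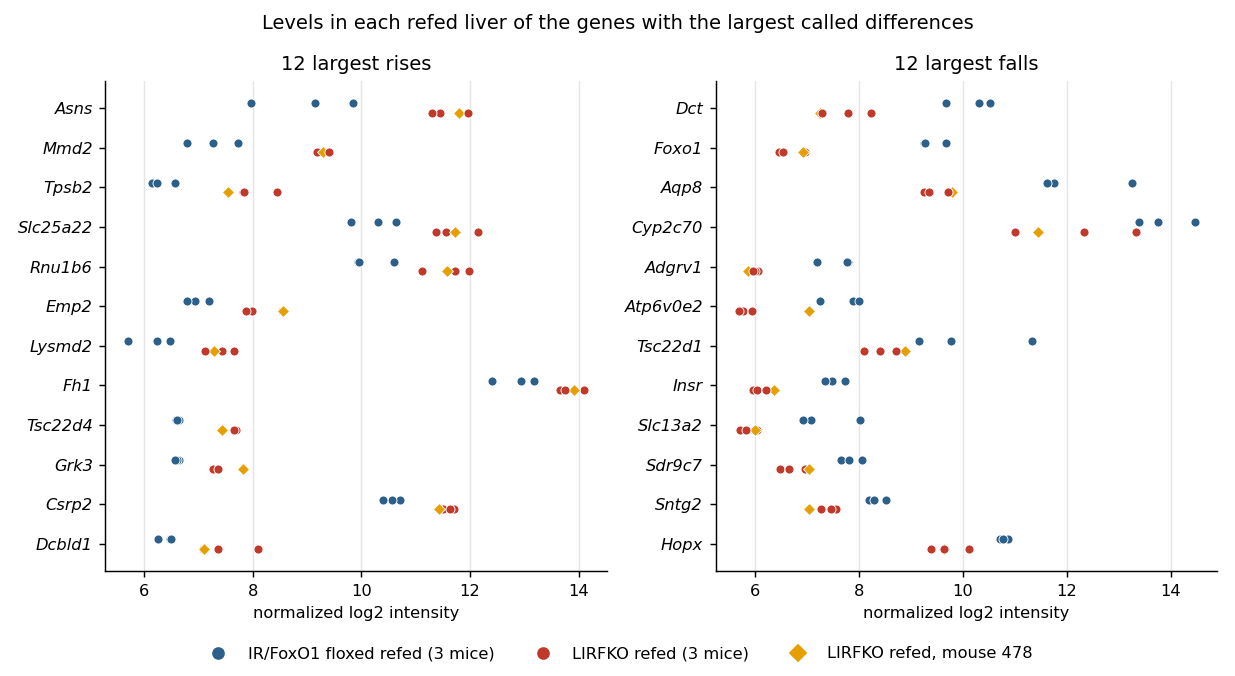
Normalized log2 intensity (horizontal) in each refed liver of the 12 genes with the largest called rises (left) and falls (right) whose groups do not overlap and whose mean exceeds the median of all genes; blue points are the 3 floxed mice, red points 3 LIRFKO mice and the orange diamond IRF.KO_Refed_478. The diamond falls among the other LIRFKO points for Asns, Mmd2 and Foxo1, is the highest LIRFKO value for Grk3 and Atp6v0e2, and the controls are widest apart for Asns and Tsc22d1.

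Aqp8, a water channel of the canalicular membrane and one of the 12 largest falls, was at 9.26, 9.36, 9.80 and 9.71 in the LIRFKO livers and at 13.26, 11.76 and 11.63 in the controls (-2.82 ± 0.48, adjusted p 0.0036). Every knockout liver was well below every control, and the highest control was IRF.fl_Refed_467; without that mouse the adjusted p was 0.065. Cyp2c70, which hydroxylates bile acids to muricholic acids in mice, was at 11.01, 13.32, 11.45 and 12.33 against 14.46, 13.76 and 13.39 (-2.17 ± 0.49, adjusted p 0.047). Its groups were only just apart, IRF.KO_Refed_469 reaching 13.32, and the adjusted p was 0.12 without IRF.KO_Refed_478 and 0.20 without IRF.KO_Refed_468. Cyp2c70 was the 1 of 22 bile acid genes to fall; none rose, the median was -0.21, and Cyp8b1, the sterol 12-alpha-hydroxylase, was at 8.18 to 9.13 against 9.59 to 10.68 (-1.48 ± 0.49, adjusted p 0.21). Slc13a2, a sodium-coupled citrate transporter, was at 5.71, 6.05, 6.01 and 5.84 against 8.03, 7.08 and 6.92 (-1.35 ± 0.28, adjusted p 0.024; 0.075 with slide as a fixed block, which ended this call). Obp2a, whose product lipocalin 13 is a secreted factor linked to glucose handling, was near background in the knockouts at 5.43, 5.49, 5.62 and 5.44 and at 6.89, 6.19 and 7.30 in the controls (-1.31 ± 0.26, adjusted p 0.015); it was the 1 of 19 feeding-regulated hepatokine genes to pass, and it lies outside the 12.

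Dct, dopachrome tautomerase of melanin synthesis, had the largest fall among genes named by size, from 9.67, 10.32 and 10.53 in the controls to 7.79, 8.24, 7.26 and 7.30 (-3.01 ± 0.60, adjusted p 0.015; 0.050 without IRF.KO_Refed_478 and 0.11 without IRF.fl_Refed_473). Gm4956, annotated as a transcribed pseudogene and likewise chosen after its values were seen, fell further, from 10.74, 10.56 and 10.59 to 6.14, 6.85, 6.43 and 6.67 (-4.76 ± 0.61, adjusted p 0.0002). The controls of Gm4956 were within 0.2 log2 units of each other, and no knockout liver came near them. Adgrv1, an adhesion G protein-coupled receptor, was at 6.06, 6.01, 5.87 and 5.96 against 7.79, 7.77 and 7.19 (-1.85 ± 0.40, adjusted p 0.029; 0.076 without IRF.KO_Refed_478). The second probe of Adgrv1 showed no fall: its group means differed by 0.0070, against -1.61 for the probe used. Atp6v0e2, a subunit of the vacuolar proton pump, was at 5.77, 5.96, 7.05 and 5.69 against 7.88, 8.01 and 7.25 (-1.69 ± 0.34, adjusted p 0.016). IRF.KO_Refed_478 was the exception for Atp6v0e2, more than 1 log2 unit above the other knockouts, and without it the difference was -2.02. Sdr9c7, a short-chain dehydrogenase, was at 6.49, 6.96, 7.05 and 6.67 against 8.05, 7.66 and 7.81 (-1.23 ± 0.24, adjusted p 0.015). Sntg2, a syntrophin, was at 7.27, 7.56, 7.05 and 7.48 against 8.20, 8.29 and 8.53 (-1.15 ± 0.22, adjusted p 0.011), and Hopx, a homeodomain protein that does not bind DNA, at 9.39, 10.12, 9.65 and 9.64 against 10.72, 10.86 and 10.76 (-1.12 ± 0.23, adjusted p 0.016; 0.052 without IRF.KO_Refed_478). All 3 were separated in every liver. Of the 12 largest falls, Foxo1 and Insr were called on every leaving-out of 1 mouse and the other 10 were not, with adjusted p up to 0.22; Gm4956, a predicted model outside the 12, was called on each (adjusted p up to 0.0029).

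Other falls outside the 12 that held on leaving out any 1 mouse, again chosen after the fact, were in Clec2h, a C-type lectin-like gene whose mean level was below the median of all genes, at 5.63 to 6.30 against 7.22 to 7.84 (-1.73 ± 0.26, adjusted p 0.0013), and in Ctnnbip1, an inhibitor of beta-catenin binding to TCF, at 7.21 to 7.53 against 8.20 to 8.38 (-0.98 ± 0.15, adjusted p 0.0014). Clic5, of the chloride intracellular channel family, had the smallest adjusted p. It was at 5.57, 5.66, 5.58 and 5.44 in the knockouts and 6.88, 7.10 and 6.68 in the controls (-1.37 ± 0.13, adjusted p 1.4e-06).

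Known FoxO1-driven genes, those of glucose production among them, did not pass the test in either direction. Igfbp1 was at 12.82, 10.03, 12.45 and 11.61 in the LIRFKO livers and at 10.25, 10.42 and 10.24 in the controls. Of the knockouts, 3 were above all controls and IRF.KO_Refed_469 was below them, so that the fitted difference of 1.66 ± 0.77 had an adjusted p of 0.44. G6pc, the catalytic subunit of glucose 6-phosphatase, was at 12.67, 11.36, 10.63 and 12.07 against 10.81, 10.52 and 10.31 (1.05 ± 0.47, adjusted p 0.42), with IRF.KO_Refed_478 inside the controls. Pck1, the cytosolic phosphoenolpyruvate carboxykinase, was at 14.87, 14.74, 14.33 and 13.89 against 11.25, 13.40 and 14.08 (1.41 ± 0.47, adjusted p 0.21), where IRF.fl_Refed_467 was the low value. Ppargc1a, the coactivator PGC-1alpha, was at 8.69, 8.76, 8.23 and 8.22 against 7.16, 7.89 and 7.92, without overlap but with an adjusted p of 0.53 (0.81 ± 0.43). Irs2, the receptor substrate that FoxO1 induces, was at 9.97, 8.91, 9.02 and 9.96 against 8.64, 9.65 and 9.29 (0.40 ± 0.30, adjusted p 0.72). Of 27 measured FoxO1 targets, 4 had knockout libraries all above the controls and 4 all below; the shares of all genes were 5.7% and 5.48%. None rose or fell past the threshold, and the median of 0.17 was 0.038 without IRF.fl_Refed_467, 0.065 without IRF.KO_Refed_469 and up to 0.23 without another mouse. Of 18 gluconeogenic genes none passed and the median was 0.03 (-0.011 to 0.079 on leaving out 1 mouse). A difference that missed the threshold is not shown to be absent: with a SE of 0.77, Igfbp1 could have differed by more than 1 log2 unit.

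The promoters of Igfbp1 and G6pc are shown because the best-known insulin response sequences, which FoxO1 binds, lie in them. Capitals mark CAAAACA, a core of these sequences, or its reverse complement TGTTTTG, in the 250 bases before the RefSeq start (GRCm38.p6; Igfbp1 chr11:7197537-7197786 and G6pc chr11:101367466-101367715, both plus strand), 5′ to 3′:
Igfbp1: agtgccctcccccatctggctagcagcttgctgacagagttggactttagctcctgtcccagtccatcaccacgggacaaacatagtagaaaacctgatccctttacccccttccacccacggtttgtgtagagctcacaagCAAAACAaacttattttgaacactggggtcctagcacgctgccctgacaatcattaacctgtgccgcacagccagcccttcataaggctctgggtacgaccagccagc
G6pc: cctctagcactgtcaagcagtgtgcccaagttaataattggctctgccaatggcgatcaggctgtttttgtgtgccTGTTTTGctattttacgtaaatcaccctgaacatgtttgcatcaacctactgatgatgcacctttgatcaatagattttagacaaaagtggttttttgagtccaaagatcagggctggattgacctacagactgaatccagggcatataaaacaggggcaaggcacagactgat
Counting back from the start, the match begins at base -108 in Igfbp1 and at base -174 in G6pc. CAAAACA is in 5.56% of all such windows, in 1 of 22 matched genes that rose (Midn) and in 2 of 42 that fell (Dpy19l3 and Olfm3). GTAAACA, a forkhead motif, is in 3.17% of windows and in none of these 64. CACGTG, an E-box of basic helix-loop-helix factors, is in 6.02% of windows, in 2 of the 22 (Flvcr2 and Midn) and in 6 of the 42 (Aqp8, Asb2, Ccdc151, Hopx, Rab23 and Tsc22d1). Here too the percentages count windows and the called counts are of genes with a match in any window, so they cannot show enrichment. The letters describe the windows and do not bear on binding in these livers.

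Genes of insulin-driven lipid synthesis and glucose use were likewise not called. Scd1, stearoyl-CoA desaturase, came nearest: it was at 10.02, 9.34, 9.67 and 10.67 against 10.69, 12.00 and 11.86, with no overlap by a margin of 0.02 (-2.06 ± 0.52, adjusted p 0.072). Acss2, which makes acetyl-CoA from acetate, was at 9.30 to 10.31 against 10.34 to 11.04 (-0.67 ± 0.22, adjusted p 0.21), and IRF.KO_Refed_478 was its lowest liver. Dgat2, of triglyceride synthesis, was at 13.97 to 14.18 against 14.26 to 14.74 (-0.49 ± 0.16, adjusted p 0.20). Srebf1, the transcription factor gene that insulin induces, was at 6.83, 7.11, 6.63 and 7.11 against 7.26, 6.84 and 6.76 (-0.06 ± 0.23, adjusted p 0.97), and Fasn, fatty acid synthase, at 8.65, 8.63, 7.59 and 9.04 against 9.06, 8.86 and 8.83 (-0.37 ± 0.30, adjusted p 0.76). The low Fasn value was that of IRF.KO_Refed_478. Of 26 fatty acid synthesis genes none passed, 4 lay lower and 1 higher in all knockout livers (5.48% and 5.7% of all genes), and the median was -0.11 (-0.042 without IRF.KO_Refed_478, -0.25 without IRF.fl_Refed_473 and -0.23 without IRF.KO_Refed_524). Cholesterol synthesis genes had a median of -0.19 over 20 genes, 17 of them below 0, which ran from -0.52 without IRF.fl_Refed_467 to -0.0067 without IRF.fl_Refed_472 and was -0.04 without IRF.KO_Refed_478; Insig1, a sterol sensor, was at 8.25 to 9.48 against 9.85 to 10.09 (-1.14 ± 0.52, adjusted p 0.42). Pklr, liver pyruvate kinase, was at 6.90 to 7.89 against 7.23 to 7.44 (0.21 ± 0.24, adjusted p 0.85), Txnip, a glucose-induced arrestin, at 8.37 to 9.23 against 7.93 to 8.24 (0.55 ± 0.23, adjusted p 0.37), and Pdk4, which inhibits pyruvate dehydrogenase, at 6.43 to 7.32 against 6.42 to 7.97 (-0.09 ± 0.34, adjusted p 0.97). Mlx, the partner of ChREBP, was at 9.07 to 9.15 in the knockouts and 9.43 to 9.95 in the controls (-0.52 ± 0.13, adjusted p 0.074).

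**Figure D4:**
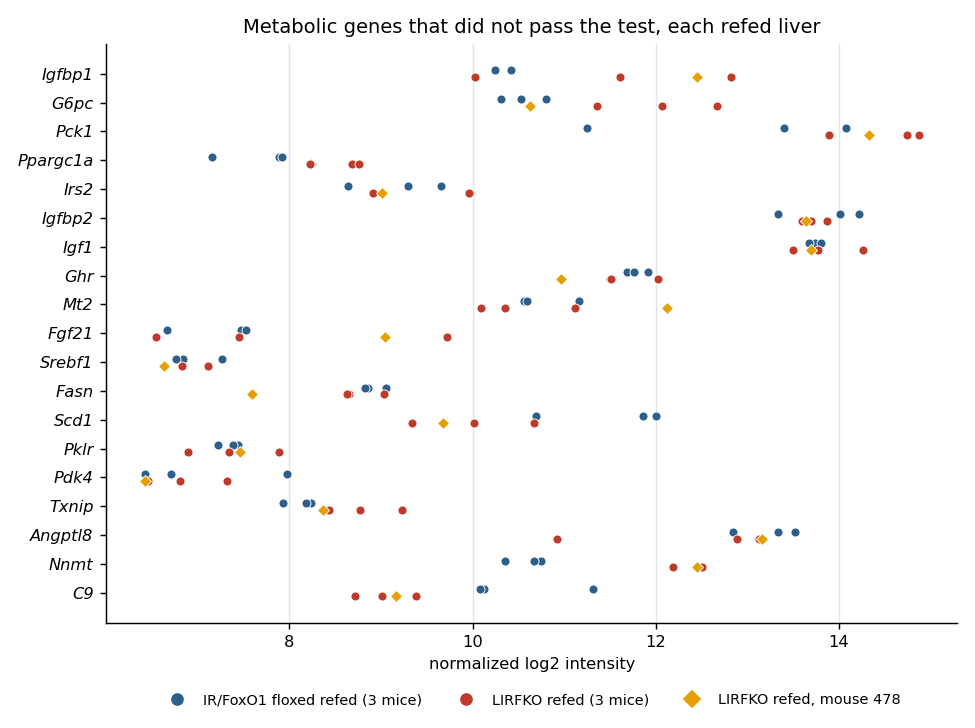
Normalized log2 intensity in each refed liver of 19 metabolic genes that did not pass the test; blue points are the 3 floxed mice, red points 3 LIRFKO mice and the orange diamond IRF.KO_Refed_478. Igfbp1 and Fgf21 are spread over more than 2 log2 units among the LIRFKO livers, Igf1, Srebf1 and Pklr overlap the controls, and Nnmt and C9 are separated without an adjusted p under 0.05.

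Of 21 genes of the growth hormone and IGF1 axis none passed, with a median of 0.10 (0.22 without IRF.fl_Refed_473), and apart from Obp2a no feeding-regulated hepatokine gene did. Igfbp2 was at 13.60, 13.70, 13.64 and 13.87 against 14.01, 14.22 and 13.33 (-0.15 ± 0.25, adjusted p 0.91). Igf1, the growth factor that liver secretes under growth hormone, was at 13.77, 14.26, 13.69 and 13.50 against 13.74, 13.80 and 13.67 (-0.16 ± 0.28, adjusted p 0.90), and Ghr, the growth hormone receptor, at 10.97 to 12.02 against 11.69 to 11.91 (-0.52 ± 0.28, adjusted p 0.55). Both overlapped fully. Fgf21, a hepatokine of fasting and amino acid stress, was at 7.45, 6.54, 9.05 and 9.72 against 6.67, 7.48 and 7.53, high in IRF.KO_Refed_478 and IRF.KO_Refed_524 (0.94 ± 0.56, adjusted p 0.62). Angptl8, a feeding-induced inhibitor of lipoprotein lipase, was at 10.92, 13.13, 13.16 and 12.88 against 13.52, 13.33 and 12.84, low in IRF.KO_Refed_468 alone (-0.48 ± 0.55, adjusted p 0.85). Igfbp3 was at 6.95 to 7.32 against 6.12 to 6.68 (0.82 ± 0.24, adjusted p 0.13).

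Over the 42 gene lists, 38 held no called gene, and medians ran from -0.55 for male-biased liver genes to the 1.06 of the acinar genes. Of 21 male-biased genes none passed, 17 were below 0 and 3 lay lower in every knockout liver (5.48% of all genes did), among them the complement gene C9 at 8.71, 9.39, 9.16 and 9.01 against 11.31, 10.12 and 10.08 (-1.55 ± 0.39, adjusted p 0.070) and Cyp2d9 (-1.16 ± 0.38, adjusted p 0.20). The floxed liver IRF.fl_Refed_467, the only control in Cy3, was the highest of the 7 in 16 of the 21. Its list mean was 13.41 against 11.85 to 12.76 in the others, and without it the median was -0.20. Of 22 female-biased genes none passed and the median was 0.12 (-0.063 without IRF.KO_Refed_524 and -0.012 without IRF.fl_Refed_467); Nnmt, nicotinamide N-methyltransferase, was at 12.48, 12.51, 12.45 and 12.19 against 10.74, 10.67 and 10.36 (2.13 ± 0.52, adjusted p 0.062), separated in every liver, and Tox at 6.41 to 7.24 against 5.66 to 6.34 (0.78 ± 0.23, adjusted p 0.14). Of 24 ER chaperone genes none passed, 21 were below 0 and the median was -0.21; IRF.fl_Refed_467 was the highest library in 17 of them, and without it the median was -0.10 (-0.35 without IRF.fl_Refed_472). The heat shock genes had a median of 0.24 over 13, none called, and IRF.KO_Refed_469 was the highest library in 12; the median was 0.026 without it and 0.045 without IRF.fl_Refed_467.

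Drug-metabolizing cytochromes and their receptors had a median of -0.31 over 23 genes; none passed, and 7 lay lower in every knockout liver (5.48% of all genes did). Cyp2c50 was at 11.70 to 12.97 against 13.22 to 13.94 (-1.68 ± 0.50, adjusted p 0.14) and Cyp3a25 at 11.65 to 12.35 against 12.44 to 13.08 (-0.82 ± 0.26, adjusted p 0.18); Cyp2c54 (-1.60 ± 0.54, adjusted p 0.21) and Cyp2c39 (-0.92 ± 0.32, adjusted p 0.23) were of like direction. Probes for the near-identical Cyp2c genes may read each other. Fatty acid oxidation genes had a median of 0.32 over 27, with 5 higher in every knockout liver (5.7% of all genes were) and none past the test; Acadl, long-chain acyl-CoA dehydrogenase, was at 11.45 to 11.88 against 10.79 to 11.19 (0.53 ± 0.21, adjusted p 0.33). Acadvl, for very long chains, was at 14.46 to 14.78 against 14.19 to 14.53 (0.37 ± 0.12, adjusted p 0.21). In amino acid catabolism, with a median of 0.01 over 31 (-0.042 to 0.097 on leaving out 1 mouse), Cbs of transsulfuration came nearest at 13.85 to 14.39 against 13.48 to 13.75 (0.68 ± 0.17, adjusted p 0.065). Of 24 acute phase genes 5 lay lower and none higher in every knockout liver, against 5.48% and 5.7% of all genes; none passed and the median was -0.09 (-0.20 without IRF.fl_Refed_473 to -0.017 without IRF.KO_Refed_468). Ceruloplasmin, Cp, was at 12.58 to 13.18 against 13.24 to 13.97 (-0.77 ± 0.20, adjusted p 0.082).

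No gene of the marker lists for other liver or blood cells was called. Mast cells had no list, and their tryptase Tpsb2 was among the calls. The list medians were 0.40 for stellate cells and fibroblasts, 0.39 for macrophages, 0.10 for neutrophils, 0.0044 for endothelium, -0.021 for T, NK and B cells, -0.064 for cholangiocytes and -0.24 for erythroid cells (0.060 without IRF.fl_Refed_467). Stellate cell and fibroblast markers had a median of 0.40 over 15 genes (0.29 without IRF.KO_Refed_478), list means of 7.88 to 8.31 in the knockouts and 7.66 to 7.79 in the controls, and 5 genes higher in every knockout liver (5.7% of all genes were). Col1a1, the collagen chain, was at 6.87, 7.05, 7.34 and 6.37 against 6.32, 6.19 and 5.98 (0.84 ± 0.20, adjusted p 0.052), and Lrat, which stores retinol in stellate cells, at 8.16, 7.87, 7.42 and 7.48 against 7.21, 6.89 and 7.41 (0.58 ± 0.15, adjusted p 0.091). Mfap4, a microfibril protein outside this list and chosen after the fact, was called, at 7.37, 6.83, 7.16 and 6.41 against 6.00, 6.27 and 6.04 (0.90 ± 0.14, adjusted p 0.0014). Macrophage markers had a median of 0.39 over 15 genes (0.21 without IRF.fl_Refed_473), all 15 above 0; Marco, a Kupffer cell scavenger receptor, was at 10.83, 9.46, 11.31 and 10.18 against 9.03, 9.44 and 9.02 (1.52 ± 0.50, adjusted p 0.20), and C1qa at 8.15 to 9.09 against 7.81 to 8.67 (0.50 ± 0.24, adjusted p 0.48). In whole liver, more cells of a type and more RNA per cell cannot be told apart. Cell cycle genes had a median of 0.095 (0.058 without IRF.KO_Refed_524), with 5 of 23 higher in every knockout liver (5.7% of all genes were), among them cyclin D1, Ccnd1, at 11.27, 10.34, 9.79 and 11.10 against 9.33, 8.69 and 9.13 (1.58 ± 0.55, adjusted p 0.24) and the replication helicase gene Mcm2 (0.84 ± 0.26, adjusted p 0.17).

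In the fasted state, 3 LIRFKO and 3 floxed mice other than those above gave 1 called gene (0.00445%) and 818 at an unadjusted p under 0.05. One fasted floxed library, IRF.fl_Fast_523, had Foxo1 and Insr against its label; without it 9 genes were called. With that library none of the 83 refed calls was called in fasted livers. Without it 5 were, all in the refed direction: Foxo1 (-3.56, adjusted p 1.7e-10), Insr (-1.39, adjusted p 0.0056), Mmd2 (2.26, adjusted p 0.017), Omd (-0.93, adjusted p 0.017) and Syde2 (-0.64, adjusted p 0.017). The sign of the fitted difference was the same for 74 of the 83 (72 without IRF.fl_Fast_523), 89.2% against 59.1% over all genes. Their median size was 0.94 refed and 0.20 fasted (0.25 without IRF.fl_Fast_523), and over all genes 0.0773 and 0.0685. The 83 were chosen by their refed difference, which favours large refed values, so these sizes cannot show a weaker effect in the fasted state. Tested directly, the refed and fasted effects differed for 1 gene (0.00445%; 910 at an unadjusted p under 0.05), Clic5, by -1.30 ± 0.19 (adjusted p 0.0052). With slide as a fixed block this call was lost (adjusted p 0.059) and no gene differed. Clic5 was at 5.55 to 5.72 in fasted LIRFKO and 5.61 to 5.66 in fasted floxed livers, against 6.68 to 7.10 in refed floxed livers, so that among these 4 groups it was raised in the refed controls. For the other refed calls a difference between the nutritional states was not shown.

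Against the receptor knockout, measured in other mice, far fewer genes were called in the refed double knockout: LIRKO and IR floxed livers differed in 2609 genes (11.6%; 1562 or 6.95% higher, 1047 or 4.66% lower). Of the 83 double knockout calls, 47 were called there too (56.6% of the 83 and 1.8% of the 2609), 45 in the same direction, 17 higher and 28 lower. Insr fell alike in both (-1.51 ± 0.21 in LIRKO). Gm4956 (-3.88 ± 0.54), Dct (-3.41 ± 0.53) and Aqp8 (-2.09 ± 0.42) fell, and Slc25a22 (1.41 ± 0.26), Emp2 (1.30 ± 0.25) and Tsc22d4 (1.16 ± 0.17) rose, in LIRKO as in LIRFKO livers, and for none of the 6 did the test of the difference pass. The exceptions in direction were Ccr3, a chemokine receptor (-0.60 ± 0.14 in LIRFKO and 0.96 ± 0.12 in LIRKO), and Dusp14, a dual-specificity phosphatase (-0.43 ± 0.07 and 0.61 ± 0.07), both chosen after the fact.

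The 2 effects themselves differed in 297 genes (1.32%): the double knockout effect was higher in 103 (0.458%) and lower in 194 (0.863%). This test sets 2 crosses with separate controls side by side, so FoxO1 and the difference between the crosses cannot be told apart. Among FoxO1-linked genes, Igfbp1 read 15.87 to 15.99 in LIRKO, the top of the scale, and its level there may be understated. The fitted rise in LIRKO was 5.88 ± 0.68 and the fitted difference of the effects -4.22 ± 1.0 (adjusted p 0.029), and the size of both may be understated for that reason. Igfbp2 rose in LIRKO by 2.12 ± 0.22, against the -0.15 of the double knockout (difference -2.27 ± 0.33, adjusted p 0.00017), and Irs2 by 1.99 ± 0.26 (difference -1.58 ± 0.39, adjusted p 0.034). Serpinb1a, an elastase inhibitor that liver secretes, was at 6.05 to 6.76 in LIRFKO against 7.08 to 7.61 in its controls, and at 9.98 to 10.72 in LIRKO against 6.16 to 6.38 (difference -4.99 ± 0.72, adjusted p 0.00016). Depp1, a FoxO-induced autophagy gene, was at 8.09 to 8.99 against 9.03 to 10.55 in the double knockout comparison (-1.56 ± 0.52, adjusted p 0.21) and rose in LIRKO by 1.76 ± 0.46 (difference -3.32 ± 0.68, adjusted p 0.0088). Krt23, a keratin (-3.52 ± 0.84, adjusted p 0.029), Cyp2c37 (-3.64 ± 0.71, adjusted p 0.0056) and the hepcidin gene Hamp2 (-3.41 ± 0.70, adjusted p 0.0084) also had lower effects in the double knockout.

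In the other direction, Igf1, Mt2, Slc10a2, Ces1f, Nat8, Nat8f5 and Cyp4a12a each fell in LIRKO and did not pass in LIRFKO livers, while other genes that fell in LIRKO, such as Gm4956, Dct and Aqp8, fell in both. Igf1 fell by 2.74 in LIRKO, to 10.73 to 11.80, and the difference between the effects was 2.57 ± 0.36 (adjusted p 0.00014). Mt2, a metallothionein, fell by 2.53 in LIRKO and was at 11.12, 10.09, 12.12 and 10.36 against 10.56, 10.59 and 11.16 in the double knockout comparison (difference 2.84 ± 0.53, adjusted p 0.0041). Slc10a2, the sodium-dependent bile acid transporter, was at 5.64 to 5.92 in LIRKO and 8.85 to 10.02 in LIRFKO livers, against 9.74 to 10.25 in the LIRFKO controls (difference 3.83 ± 0.36, adjusted p 3.8e-07). Ces1f, a carboxylesterase (3.71 ± 0.59, adjusted p 0.00065), the acetyltransferase gene Nat8 (3.53 ± 0.60, adjusted p 0.0013), its relative Nat8f5 (3.36 ± 0.38, adjusted p 5.3e-06) and the male-biased Cyp4a12a (3.19 ± 0.53, adjusted p 0.0010) had differences of like size. Of 21 male-biased genes, with a median of -1.56 in LIRKO, 14 fell there (4.66% of all genes did) and none in LIRFKO (0.227% of all genes). The difference passed upward for 6 of the 21, against 0.458% of all genes. Cholesterol synthesis genes had medians of -1.09 in LIRKO, where 8 of 20 fell (4.66% of all genes did), and -0.19 in LIRFKO. Of the 20, 1 had a difference past the test (1.32% of all genes did). Of 15 macrophage markers, 12 rose in LIRKO (6.95% of all genes did), with a median of 1.28, and none had a difference past the test.

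For some calls the double knockout effect differed from the receptor knockout effect: of the 36 of the 83 not called in LIRKO, 12 had a difference past the threshold, Foxo1 among them (-2.67 ± 0.60, adjusted p 0.020). Mmd2 was at 5.88 to 7.60 in LIRKO, within reach of its controls at 6.33 to 7.27, and the difference was 2.61 ± 0.61 (adjusted p 0.027). Tpsb2 differed by 2.33 ± 0.46 (adjusted p 0.0066) and Mfap4 by 1.06 ± 0.18 (adjusted p 0.0014). Asns was not called in LIRKO (-0.10, adjusted p 0.97), and its difference of 3.38 ± 0.99 did not pass (adjusted p 0.088). Leaving out 1 mouse of the 7 gave 151 to 259 differences in place of 297, the lowest without IRF.fl_Refed_467.

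**Figure D5:**
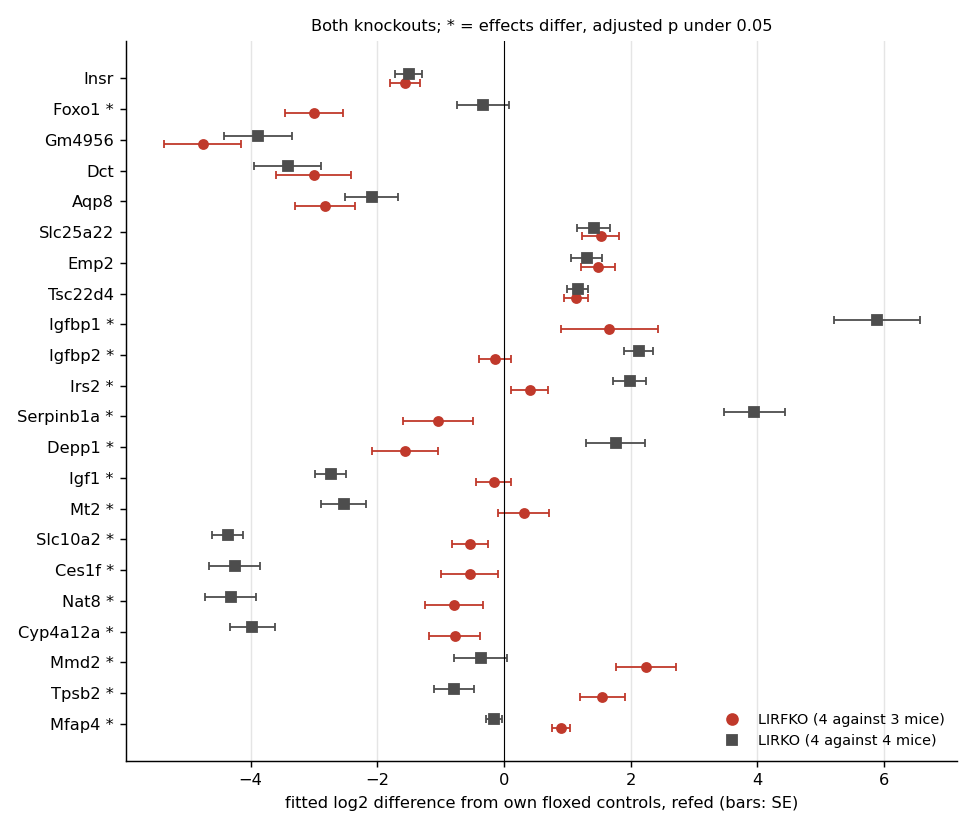
Fitted log2 differences from their own refed floxed controls, with SE bars, for 22 genes in the double knockout (red circles, LIRFKO, 4 against 3 mice) and the receptor knockout (grey squares, LIRKO, 4 against 4 mice); an asterisk marks genes whose effects differ at an adjusted p under 0.05. Insr, Gm4956, Dct, Aqp8, Slc25a22, Emp2 and Tsc22d4 have overlapping positions without an asterisk, while Igfbp1 (at the top of the scale in LIRKO), Serpinb1a, Igf1 and Slc10a2 lie far from 0 in the receptor knockout and nearer to it in the double knockout.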

How the data were processed

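Values are the deposited table of normalized log2 intensities per probe, 1 column per dye channel; R 3.1.0 with limma 3.20.1 is listed in the submitters' processing notes, and how background was corrected and arrays were normalized is not given in the sources used here. Probes were named through GEO's platform annotation, updated to RefSeq symbols; 33026 of 45220 features had 1 gene and 12194 none. Each gene took its probe of highest mean over all 38 columns. The test was limma 3.58.1 in R 4.3.3 over 37 libraries (11 group means, a dye term, the array as a random block with a consensus correlation of 0.358), with Benjamini-Hochberg adjustment over 22479 genes at 0.05; 1 library whose labels conflict was left out. The fit was tested on simulated data. Array number limits the precision. Each mouse is 1 library; an exact permutation test of 4 against 3 cannot go below 0.0571 and was not used. Named genes are 20 key genes, the 12 largest rises and falls (no overlap, mean above the median, not predicted models), up to 4 per list, the 6 largest differences of each sign, and markers set apart in 1 library; others are said to be chosen after their values were seen or after the fact. The members, lists and rules were chosen with earlier results of these data known. Promoter windows are RefSeq's (GRCm38.p6); 64 of the 83 called genes matched.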

Additional observations from a re-analysis of the deposited data

Results flagged for a closer look

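In the LIRFKO refed group of 4 livers, 7 of 139 genes and list means had 1 library far from the other 3 by Dixon's test. Chance alone gives this in about 1 of 20 groups, so the count was about what chance gives. The mean of the acinar genes was 10.27 in IRF.KO_Refed_478 against 5.80 to 5.87. In the same mouse Foxo3 was low at 5.42 (others 5.53 to 5.54), Tsc22d4 low at 7.44 (7.65 to 7.68), Acss2 low at 9.30 (10.17 to 10.31) and Hamp2 low at 7.40 (8.51 to 8.73). Angptl8 was low in IRF.KO_Refed_468 at 10.92 (12.88 to 13.16), and Phgdh high in IRF.KO_Refed_469 at 6.01 (5.92 in all others). Such a count does not show that these livers stand apart beyond the acinar genes of IRF.KO_Refed_478, and no cause was tested.

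The refed effect differed from the fasted effect for Clic5 (-1.30). The double knockout effect in refed liver was higher than the receptor knockout effect for Slc10a2 (3.83), Ces1f (3.71), Nat8 (3.53), Nat8f5 (3.36), Cyp4a12a (3.19), Mt2 (2.84), Mmd2 (2.61), the acute phase gene Saa4 (2.58), Igf1 (2.57), Tpsb2 (2.33), Mfap4 (1.06) and Cbs (1.03). It was lower for Serpinb1a (-4.99), Cyp2c37 (-3.64), Krt23 (-3.52), Hamp2 (-3.41), Depp1 (-3.32), Foxo1 (-2.67), Cyp2c39 (-2.59), Igfbp2 (-2.27), AA414992 (-1.72), Irs2 (-1.58), Ccr3 (-1.57), Cyp3a25 (-1.39) and Dusp14 (-1.04). It was also lower for Igfbp1 (-4.22), whose size may be understated because the probe was at the top of the scale in LIRKO livers. Each value is a fitted log2 difference of effects with a limma adjusted p under 0.05.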

How the results depend on the processing

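Of the 83 calls, 61 of 88 were shared with slide as a fixed block. The count was 53 with slide as a random block, 51 with no random block, 172 with array quality weights, 5 with the 7 libraries alone, and 28 with slide fixed and IRF.KO_Refed_478 left out together, a setting chosen after seeing the data; leaving out 1 mouse gave 27 to 77. The other settings run (no dye term, new quantile normalization, median centring, mean of all probes, genes above the median level only, robust trended variances, without IRF.fl_Fast_523) gave 65 to 97. Genes whose double and receptor knockout effects differed numbered 188 with slide as a random block, 721 with array weights, 127 with slide fixed and IRF.KO_Refed_478 left out, and 151 to 259 on leaving out 1 mouse. The refed minus fasted count was 0 with slide fixed, with and without IRF.KO_Refed_478, and 0 above the median level, where Clic5 was not tested, and 1 to 4 on leaving out 1 mouse. Among named genes, 241 of 753 values of the 38 called genes missed the threshold and none changed sign. Of the 59 uncalled genes, 8 passed the threshold in at least 1 setting, with 13 of 1177 values. They were C9, Col1a1, Col1a2, Cyp2c50, Mlx, Nnmt, Scd1 and Tox, so that their not being called depended on the setting.

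Signs turned for 7 uncalled genes with small differences, and the cause was not tested. With slide fixed, Igfbp2 was 0.039 and Pdk4 0.045. With array weights, Srebf1 was 0.0076, Igf1 0.0059 and Krt23 0.21. With no random block, Igf1 was 0.033 and Krt23 0.14; with the 7 alone, Igf1 was 0.052 and Krt23 0.21. Krt23 was 0.10 with slide as a random block and 0.10 without IRF.fl_Fast_523, and Mt2 -0.13 with slide fixed and IRF.KO_Refed_478 left out. On leaving out 1 mouse the ranges were -0.36 to 0.089 for Igfbp2, -0.24 to 0.14 for Srebf1, -0.37 to 0.38 for Pdk4, -0.71 to 0.092 for Angptl8, -0.050 to 0.46 for Mt2 and -0.57 to 0.26 for Krt23. No paired analysis was possible because the replicate numbers are mouse numbers and no mouse is in both groups. Small differences near background, where many of the falls lie, are limited by signal over background, which was not given.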

Other observations

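Of the 83 called genes, 3 that lie near each other in the RefSeq annotation were high in only 2 of the controls. Gm7969 was at 9.68 and 10.47 in IRF.fl_Refed_472 and IRF.fl_Refed_473, at 5.69 in IRF.fl_Refed_467 and at 5.87 to 6.21 in the LIRFKO livers (-2.60 ± 0.50, limma adjusted p 0.011). AA414992, its next annotated neighbour, was at 7.98 and 8.49 against 5.35 in IRF.fl_Refed_467 and 5.30 to 5.45 in the knockouts (-1.84 ± 0.34, adjusted p 0.0075). The zinc finger gene Zfp874a, 21 annotated genes away from Gm7969, was at 6.79 and 6.84 against 5.35 and 5.31 to 5.40 (-0.96 ± 0.17, adjusted p 0.0075). In the 35 other libraries of the fit, of every genotype, Zfp874a stayed between 5.22 and 5.54. Gm7969 stayed between 5.57 and 6.21 there and AA414992 between 5.24 and 5.78. IRF.fl_Refed_472 and IRF.fl_Refed_473 thus stood apart from all other libraries for these 3 genes, and IRF.fl_Refed_467 did not. Without IRF.fl_Refed_473 none of the 3 was called (adjusted p 0.11 to 0.17).

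IRF.fl_Refed_467, the only control in Cy3, was the highest control for 27 of the 51 falls, against 35.1% of all genes. IRF.fl_Refed_473 was highest for 13 and IRF.fl_Refed_472 for 11. Of 12194 features with no gene name, 25 were called, 9 higher and 16 lower. Over the 37 libraries other than IRF.KO_Refed_478, acinar list means ran from 5.74 to 9.66, the highest being in a library outside the 7, so IRF.KO_Refed_478 was not the only library of the series with acinar RNA.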
